A study of Homo sapiens with 15 samples.

Results

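The metallothionein and zinc transporter genes described here were MT2A, MT1X, MT1E, MT1F, MTF1, SLC30A1, SLC39A8 and SLC39A10, which are 8 of the 60107 genes listed in each library, and they were chosen by gene symbol. They were measured by RNA sequencing of the pancreatic carcinoma cell line MIA PaCa-2, which is of human origin, in 15 libraries that form 5 groups of 3. The cells were given vehicle (labelled Ctrl), Lys05, BAQ12, BAQ13 or BAQ12O, each compound at 5 µM for 24 h. Lys05 is a bisaminoquinoline that accumulates in lysosomes and inhibits autophagy. BAQ12 and BAQ13 join the bisaminoquinoline head of Lys05 to a long hydrophobic tail, differ from each other by a methylene unit in the length of that tail, and self-assemble into nanoparticles. BAQ12O is known here only by its label, so its structure is not described. Every library came from the same cell line, and the labels do not say whether the libraries of a group came from separate cultures, so the p-values measure the spread between these libraries, which may be technical.

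Metallothioneins are small cysteine-rich proteins that bind zinc, copper and cadmium in the cytosol. The zinc-sensing transcription factor MTF1 binds metal response elements in their promoters and in that of SLC30A1, which encodes the zinc exporter ZnT1 of the plasma membrane, so that a rise in free zinc is known to raise the transcripts of both. The ZIP proteins, encoded by SLC39 genes, carry zinc into the cytosol. SLC39A10 encodes ZIP10 of the plasma membrane, whose transcript is known to fall when zinc is high, and SLC39A8 encodes ZIP8, which also carries manganese and cadmium. Aminoquinolines such as chloroquine have been described as carriers of zinc into cells, which is the question these genes bear on. The metal itself was not measured in these libraries.

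The metallothionein genes lie together on chromosome 16 (GRCh38, GENCODE 29), MT2A at chr16:56608199-56609497, MT1E at chr16:56625475-56627112, MT1F at chr16:56657694-56660698 and MT1X at chr16:56682424-56684196, all on the plus strand. MTF1 (chr1:37809567-37859620) and SLC30A1 (chr1:211571568-211578742) are on the minus strand of chromosome 1. SLC39A8 (chr4:102251041-102431258) is on the minus strand of chromosome 4, and SLC39A10 (chr2:195575977-195737702) is on the plus strand of chromosome 2. The reading frames of the 3 metallothioneins with reads are shown because their likeness bears on how reads could be assigned. Each is exonic, from start to stop codon without the untranslated ends, read from the GENCODE 29 transcripts, and the capitals mark the cysteine codons.

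MT2A: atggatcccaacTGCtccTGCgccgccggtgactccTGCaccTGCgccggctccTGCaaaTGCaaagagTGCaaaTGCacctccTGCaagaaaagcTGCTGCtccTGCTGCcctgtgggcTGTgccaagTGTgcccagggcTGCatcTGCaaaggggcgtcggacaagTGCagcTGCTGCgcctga

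MT1E: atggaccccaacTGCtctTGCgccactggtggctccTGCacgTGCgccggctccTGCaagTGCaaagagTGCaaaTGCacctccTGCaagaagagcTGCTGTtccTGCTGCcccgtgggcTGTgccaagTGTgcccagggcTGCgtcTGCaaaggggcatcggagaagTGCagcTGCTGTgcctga

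MT1X: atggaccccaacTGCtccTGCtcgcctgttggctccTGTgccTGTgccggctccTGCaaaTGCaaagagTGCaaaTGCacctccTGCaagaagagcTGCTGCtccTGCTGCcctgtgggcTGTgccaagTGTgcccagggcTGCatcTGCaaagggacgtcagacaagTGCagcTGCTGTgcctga

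Each of these frames has 186 bases, of which 61 codons precede the stop, and 20 of those 61 encode cysteine. MT2A and MT1E shared 92.5% of their coding bases, MT2A and MT1X 92.5%, and MT1E and MT1X 90.9%. The longest stretch that was identical between the whole transcripts was 32 bases for MT2A and MT1E, 63 for MT2A and MT1X and 41 for MT1E and MT1X. Within the last 200 bases of the transcripts, where a 3′-end kit such as the one named in the labels would place its reads, these stretches were 15, 23 and 23 bases. How reads that match several copies were counted is not given in the sources used here, so the split between metallothionein copies is uncertain to that extent. The longest stretches there among the copies with reads were 34 bases for MT1E and MT1G, 33 for MT1E and the pseudogene MT1L, and 31 for MT1A and MT1G.

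The promoters were searched for the core of the metal response element, the 7 letters TGCACNC or TGCGCNC on either strand, in the RefSeq promoter table of GRCh38.p14, which holds 250 bases before and 50 after each start and lists 6 of the 8 genes. MT1E and MT1F were not among them. The 250 bases before the start are shown for MT2A (chr16:56608334-56608583, plus strand), MT1X (chr16:56682220-56682469, plus strand), SLC30A1 (chr1:211579162-211579411, minus strand) and SLC39A10 (chr2:195656708-195656957, plus strand). For SLC39A10 this is the more upstream of its starts in that table, which lies inside the GENCODE bounds of the gene. These genes carry most of the comparisons, and every match is in capitals.

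MT2A: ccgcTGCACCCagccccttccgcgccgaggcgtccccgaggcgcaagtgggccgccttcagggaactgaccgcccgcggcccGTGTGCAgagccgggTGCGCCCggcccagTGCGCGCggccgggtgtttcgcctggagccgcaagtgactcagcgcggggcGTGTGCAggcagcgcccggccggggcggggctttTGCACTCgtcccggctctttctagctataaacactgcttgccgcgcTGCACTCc

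MT1X: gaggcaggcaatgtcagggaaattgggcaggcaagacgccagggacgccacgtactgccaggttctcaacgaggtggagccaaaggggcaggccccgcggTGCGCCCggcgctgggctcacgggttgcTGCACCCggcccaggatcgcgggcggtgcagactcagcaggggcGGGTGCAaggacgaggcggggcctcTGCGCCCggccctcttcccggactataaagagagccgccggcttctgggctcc

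SLC30A1: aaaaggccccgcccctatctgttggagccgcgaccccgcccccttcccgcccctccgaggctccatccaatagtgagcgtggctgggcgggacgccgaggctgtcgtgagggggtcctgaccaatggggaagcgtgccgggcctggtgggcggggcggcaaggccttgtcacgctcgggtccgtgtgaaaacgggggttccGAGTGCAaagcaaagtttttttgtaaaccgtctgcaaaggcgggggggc

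SLC39A10: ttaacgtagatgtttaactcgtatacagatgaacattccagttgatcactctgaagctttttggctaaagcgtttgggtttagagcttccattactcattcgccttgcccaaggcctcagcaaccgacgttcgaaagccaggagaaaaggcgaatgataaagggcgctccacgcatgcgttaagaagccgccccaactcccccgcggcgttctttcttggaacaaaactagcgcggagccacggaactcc

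In the window of 300 bases, MT2A held 8 matches, MT1X 4, SLC30A1 2 and MTF1 0. Of the 35116 promoters of the table, 29.6% held at least 1 match, 8.6% at least 2, 0.601% at least 4 and 0.0199% at least 8. The promoters of SLC39A10 held 0 and 1 match at its 2 RefSeq starts, and those of SLC39A8 held 0, 0 and 1 at its 3 RefSeq starts. The GENCODE bounds of both genes begin further upstream, at chr2:195575977 for SLC39A10 and chr4:102431258 for SLC39A8. The sequence before those outermost starts was not searched, so these counts do not cover it. A match describes letters, not a bound site.

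**Figure D1:**
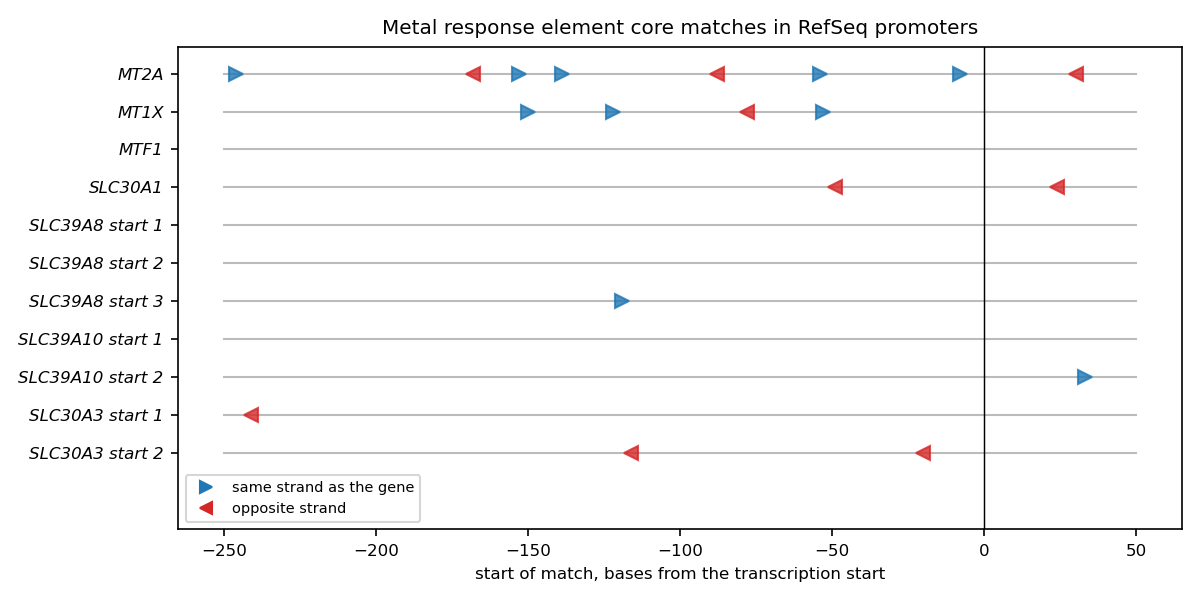
Positions of metal response element core matches in the promoters of 6 of the genes and of SLC30A3, a further zinc transporter gene, in bases from the transcription start on the x axis. Each row is 1 RefSeq start, numbered by position where a gene has several, and triangles point along the strand of the match. MT2A carries 8 matches and MT1X 4, whereas MTF1 carries 0.

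Between 1586566 and 2500551 reads per library fell on genes, with a median of 2230594, and 14815 to 15718 genes were detected. Of the epithelial markers, KRT8, KRT18 and KRT19 had reads in every library, whereas EPCAM had at most 1 read and CDH1 at most 5 reads in a library. The mesenchymal marker VIM was between 9198 and 10781 normalised read counts, and the leukocyte and endothelial markers were at or near 0. Replicate 3 of BAQ12 stood apart, with a median absolute log2 distance of 0.384 from the mean of the other 2 BAQ12 libraries, over 9791 genes. Its distance was 0.318 from the mean of the BAQ13 libraries, whereas replicates 1 and 2 of BAQ12 were nearest to Lys05, at 0.144 and 0.14. Their distances to their own group (0.254 and 0.215) include replicate 3, so they do not show how alike replicates 1 and 2 were. The chi-square of the reads per degree of freedom was 1.33 between replicates 1 and 2. It was 13.4 and 11.3 between each of them and replicate 3. Distances to the own group use a mean of 2 libraries and the others a mean of 3, so they are not on equal terms. The BAQ13 libraries were also uneven, replicate 1 being nearer to the BAQ12 mean (0.189) than to the other 2 of its group (0.228), and replicate 3 nearer to the Lys05 mean (0.187) than to the other 2 of its group (0.203). Because all 15 libraries share 1 estimate of the spread, replicate 3 of BAQ12 also widens the intervals of comparisons it does not enter. Results are therefore given with and without it.

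Of the 8 genes, 6 had enough reads to be tested. MT1F had 0 reads in all 15 libraries, which allows up to 3 reads in each, or 2.49 to 4.14 normalised read counts depending on the library. SLC39A8 had 4 reads in total and at most 1 per library, in 1 library each of vehicle, Lys05, BAQ12 and BAQ12O. Both genes were at or under the floor in every group, so no change was detectable at this depth. Such limits cover counting error only.

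**Figure D2:**
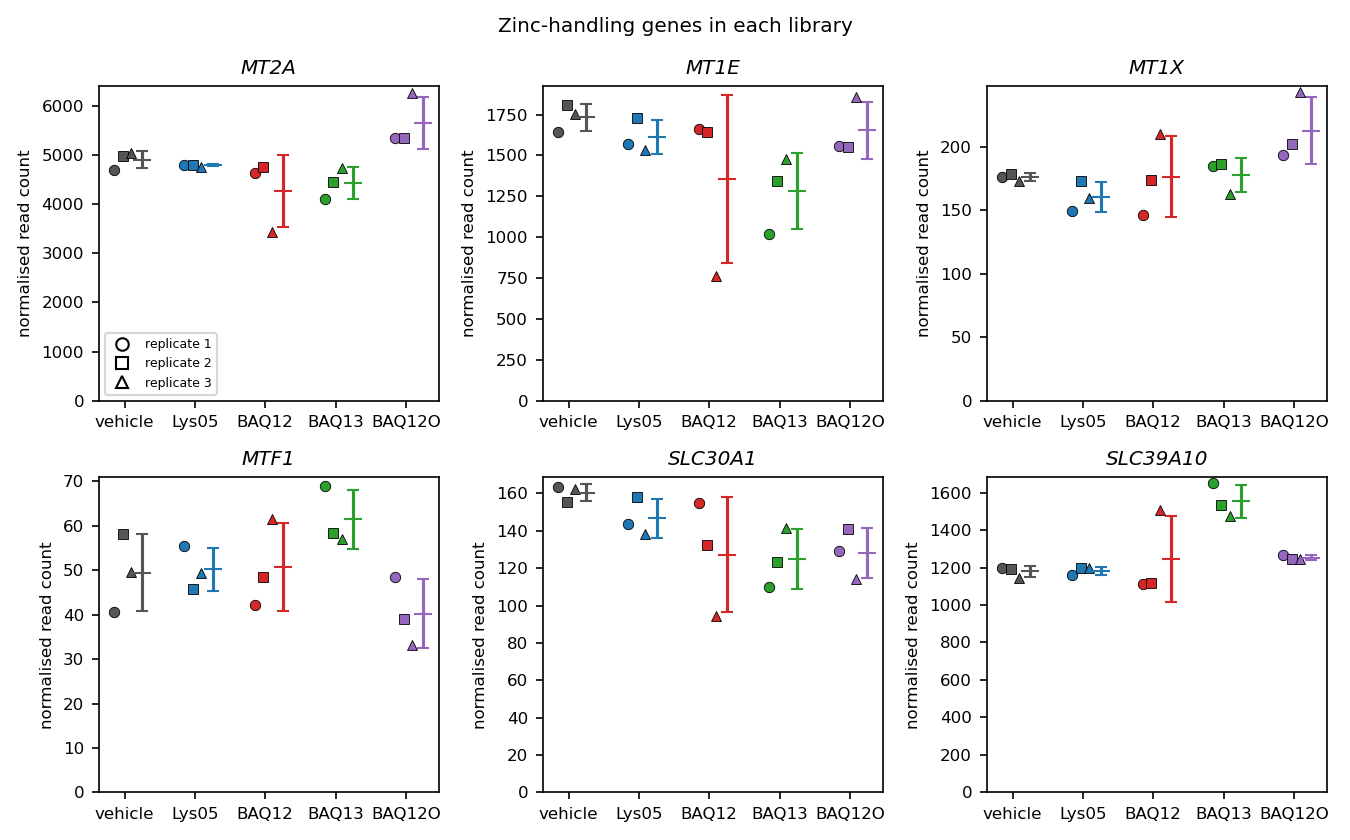
Normalised read counts of the 6 tested genes on the y axis, from 0, for the 5 groups on the x axis. Points are single libraries, their shape gives the replicate number, and the bar beside them is the mean ± SD of the 3 libraries. In SLC39A10 the 3 BAQ13 libraries sit between 1477.6 and 1648.9, above the 3 vehicle libraries, and replicate 3 of BAQ12 sits away from replicates 1 and 2 in MT2A, MT1E, SLC30A1 and SLC39A10.

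SLC39A10, the plasma membrane importer, was the 1 gene of the 8 to pass the test against vehicle, and it rose with BAQ13. Its normalised read counts were 1196.4, 1194.8 and 1146.5 with vehicle and 1648.9, 1535.7 and 1477.6 with BAQ13. All 3 BAQ13 libraries lay above all 3 vehicle libraries. The means were 1179 ± 28.3 with vehicle and 1554 ± 87.1 with BAQ13 (SD, n = 3), a 1.32-fold rise (log2 difference 0.40, 95% interval 0.20 to 0.60, SE 0.09, adjusted p = 0.0172 by limma over 10495 genes). The same comparison called 606 genes, 5.77% of those tested, and SLC39A10 ranked 364 by p. The recovered reads gave a log2 fold change of 0.39 with edgeR's quasi-likelihood test (adjusted p = 0.0168) and 0.40 with DESeq2 (adjusted p = 0.0128). Leaving out 1 of the 3 vehicle libraries, or replicate 1 or 2 of BAQ13, took the adjusted p above the threshold, to between 0.0511 and 0.0819, with the log2 difference between 0.35 and 0.41.

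In the other groups SLC39A10 did not pass the test. With Lys05 its normalised read counts were 1159.6, 1195.5 and 1195.8, which overlapped vehicle (log2 difference 0.01, 95% interval -0.19 to 0.20). With BAQ12 they were 1110.6, 1117.8 and 1508.5, so replicate 3 alone reached the range of BAQ13 and replicates 1 and 2 lay below vehicle. The log2 difference of 0.06 between BAQ12 and vehicle became -0.08 without replicate 3, and neither value passed the test. With BAQ12O the values were 1268.8, 1243.2 and 1247.7, all above vehicle, by a log2 difference of 0.09 (95% interval -0.11 to 0.29, adjusted p = 0.753). By group mean, SLC39A10 increased in the order vehicle, Lys05, BAQ12, BAQ12O and BAQ13, where the last step was the 1 between neighbours whose libraries did not overlap.

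The metallothionein transcripts did not pass the test with any compound, and their group means pointed in different directions. MT2A had normalised read counts of 4700.0, 4968.9 and 5030.3 with vehicle, 4799.0, 4790.5 and 4759.7 with Lys05, 4631.5, 4750.8 and 3432.8 with BAQ12, 4094.7, 4451.3 and 4728.5 with BAQ13, and 5336.9, 5339.0 and 6256.4 with BAQ12O. All BAQ12O libraries lay above all other libraries, while BAQ12 and BAQ13 overlapped vehicle. The log2 difference from vehicle was 0.20 with BAQ12O (95% interval -0.02 to 0.42, adjusted p = 0.430) and -0.03 with Lys05, -0.21 with BAQ12 and -0.15 with BAQ13. Ordered by mean, MT2A was at 4272 ± 729 with BAQ12, 4425 ± 318 with BAQ13, 4783 ± 20.7 with Lys05, 4900 ± 176 with vehicle and 5644 ± 530 with BAQ12O (SD, n = 3), and no 2 neighbours in that order differed by the test.

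MT1E had normalised read counts of 1643.9, 1807.8 and 1750.5 with vehicle and of 1022.7, 1344.3 and 1477.6 with BAQ13. The 3 BAQ13 libraries were all below the 3 vehicle libraries, and the means were 1282 ± 234 and 1734 ± 83.2 (SD, n = 3). The log2 difference of -0.45 (95% interval -0.89 to -0.01) did not pass the test over 15 libraries (adjusted p = 0.243 by limma). Without replicate 3 of BAQ12 the difference was the same by construction, its interval narrowed to -0.64 to -0.27, and MT1E passed the test (adjusted p = 0.000918). With BAQ12 the values were 1663.7, 1642.2 and 766.2, so 1 library lay far below the other 2, and the log2 difference from vehicle moved from -0.44 to -0.07 without it. With Lys05 MT1E was at 1572.7, 1730.8 and 1535.6, and with BAQ12O at 1555.5, 1550.2 and 1855.7, both overlapping vehicle. By mean, MT1E increased in the order BAQ13, BAQ12, Lys05, BAQ12O and vehicle, and no 2 neighbours in it differed by the test.

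MT1X was at 176.0, 178.7 and 172.6 with vehicle, 149.1, 172.9 and 159.6 with Lys05, 145.8, 173.4 and 209.8 with BAQ12, 184.8, 185.9 and 162.6 with BAQ13, and 193.0, 202.1 and 242.6 with BAQ12O. The BAQ12O libraries were all above vehicle, with a log2 difference of 0.27 (95% interval -0.00096 to 0.53, adjusted p = 0.392), while the other 3 compounds overlapped vehicle. By mean, MT1X increased in the order Lys05, vehicle, BAQ12, BAQ13 and BAQ12O, without a tested difference between neighbours. In replicate 3 of BAQ12, MT1X was the highest of its group while MT2A and MT1E were the lowest.

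MTF1, the zinc-sensing transcription factor, was measured at low levels in every group. It was at 40.7, 58.1 and 49.6 normalised read counts with vehicle, 55.4, 45.8 and 49.5 with Lys05, 42.2, 48.5 and 61.5 with BAQ12, 69.1, 58.3 and 57.0 with BAQ13, and 48.5, 39.1 and 33.1 with BAQ12O. All 4 compounds overlapped vehicle. By mean the order was BAQ12O, vehicle, Lys05, BAQ12 and BAQ13, from 40.2 ± 7.77 to 61.5 ± 6.61 (SD, n = 3), and no neighbours differed by the test. The log2 difference from vehicle was 0.32 with BAQ13 (adjusted p = 0.380) and -0.29 with BAQ12O (adjusted p = 0.544).

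SLC30A1, the exporter controlled by MTF1, was lower than vehicle in every library of BAQ12, BAQ13 and BAQ12O. For BAQ12 this was by a narrow margin, replicate 1 being at 155.0 and the lowest vehicle library at 155.2. None of the 3 differences passed the test over 15 libraries, and how many of all genes separated in this way was not counted. Its normalised read counts were 163.6, 155.2 and 162.5 with vehicle, 143.7, 158.3 and 138.2 with Lys05, 155.0, 132.6 and 94.2 with BAQ12, 110.1, 123.0 and 141.6 with BAQ13, and 129.4, 141.1 and 114.4 with BAQ12O. Lys05 overlapped vehicle in 1 library. The log2 difference from vehicle was -0.36 with BAQ12 (95% interval -0.68 to -0.04, adjusted p = 0.374), -0.37 with BAQ13 (95% interval -0.69 to -0.04, adjusted p = 0.190) and -0.32 with BAQ12O (95% interval -0.65 to -0.0040, adjusted p = 0.382). Without replicate 3 of BAQ12, SLC30A1 passed the test with BAQ13 (adjusted p = 0.0294), and its log2 difference with BAQ12 was -0.16. By mean the order was BAQ13, BAQ12, BAQ12O, Lys05 and vehicle, from 125 ± 15.8 to 160.4 ± 4.54 (SD, n = 3), with no tested difference between neighbours.

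Counted over the 6 tested genes by limma, 0 passed with Lys05, where 0.238% of all genes tested did, and 0 of the 6 were at an unadjusted p under 0.05. With BAQ12, 0 passed against 0.981% of all genes, and 1 was at an unadjusted p under 0.05. With BAQ13, 1 passed against 5.77% of all genes, and 3 were at an unadjusted p under 0.05. With BAQ12O, 0 passed against 1.48% of all genes, and 1 was at an unadjusted p under 0.05. Of all 10495 genes tested, 523 were at an unadjusted p under 0.05 with Lys05, 1239 with BAQ12, 2041 with BAQ13 and 1339 with BAQ12O. edgeR and DESeq2 on the recovered reads each passed 0, 0, 1 and 0 of the 6. The median log2 difference of the 6 genes from vehicle was -0.07 with Lys05, -0.11 with BAQ12, -0.07 with BAQ13 and 0.01 with BAQ12O, where the median over all genes tested was between -0.0042 and 0.0018. In the fit without replicate 3 of BAQ12, 10657 genes were tested and 3 of the 6 genes passed with BAQ13, namely SLC39A10, MT1E and SLC30A1, where 13.5% of all genes passed. The counts then stayed at 0 with Lys05 (0.479% of all genes), BAQ12 (1.29%) and BAQ12O (4.94%).

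**Figure D3:**
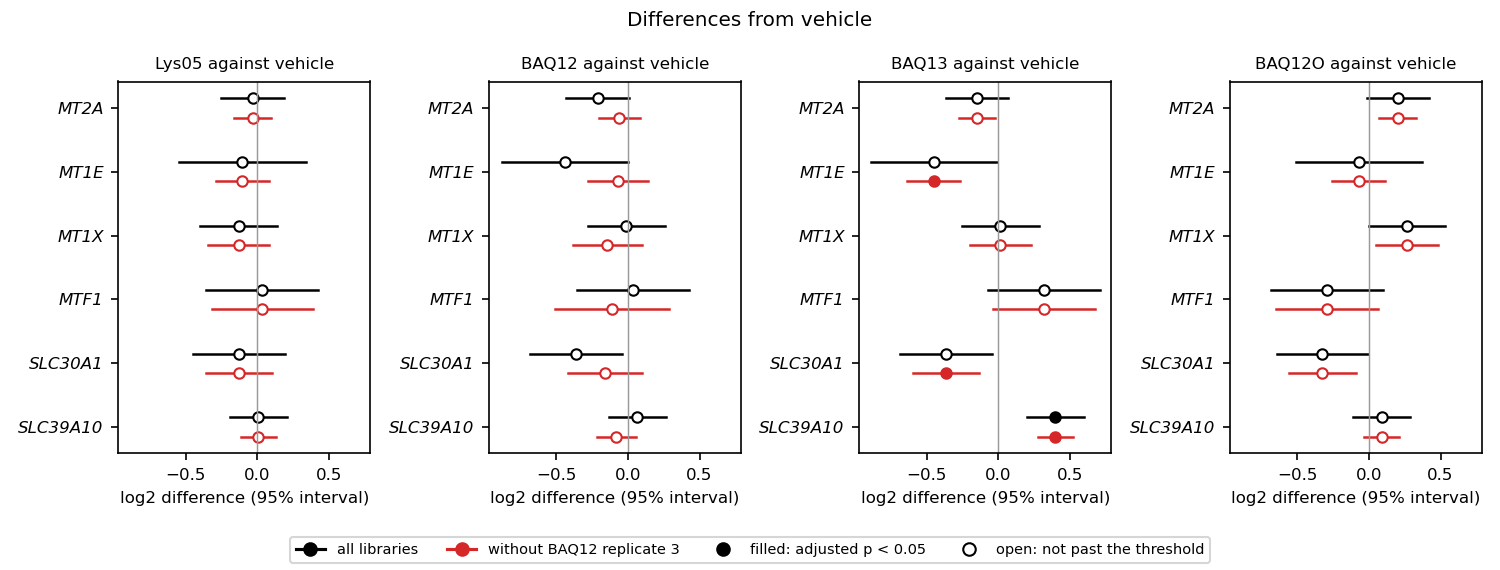
Log2 difference from vehicle with its 95% interval on the x axis, for the 6 tested genes on the y axis and 1 panel per compound. Black is the fit of all libraries, red the fit without replicate 3 of BAQ12, and filled points had an adjusted p under 0.05. SLC39A10 with BAQ13 is filled in both fits (log2 difference 0.40), whereas MT1E and SLC30A1 with BAQ13 are filled in red only.

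The compounds were given at the same dose and time, so they were also compared with each other, in 6 pairs. SLC39A10 was higher with BAQ13 than with Lys05 (log2 difference 0.39, 95% interval 0.19 to 0.59, adjusted p = 0.0340 by limma), all BAQ13 libraries being above all Lys05 libraries. It was the 1 gene of the 6 that passed in this pair, where 2.66% of all genes tested passed. It missed the threshold when 11 of the 15 libraries were left out in turn (adjusted p = 0.0502 to 0.148), without a filter on low counts, and with the replicate number as a block. None of the 6 genes passed in BAQ12 against Lys05 (0.162% of all genes), BAQ12O against Lys05 (0.248%), BAQ13 against BAQ12 (0.562%), BAQ12O against BAQ12 (0.229%) or BAQ12O against BAQ13 (1.39%). At an unadjusted p under 0.05 by limma there were 0, 2, 1, 2 and 3 of the 6 genes in these pairs. Of all 10495 genes tested, 752, 772, 868, 879 and 1180 were at that level in the same pairs. edgeR and DESeq2 passed 0 of the 6 genes in each.

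BAQ13 and BAQ12, which differ by a methylene unit, had a log2 difference of 0.33 in SLC39A10 (BAQ13 higher, 95% interval 0.13 to 0.53, adjusted p = 0.184), with overlapping libraries. In MT1E the difference between them was -0.01, with an interval of -0.46 to 0.43 that leaves room for a change in either direction. Once replicate 3 of BAQ12 was left out, SLC39A10 was higher with BAQ13 than with BAQ12 by 0.48 (95% interval 0.34 to 0.61, adjusted p = 4.21e-05) and MT1E lower by a log2 difference of -0.38 (95% interval -0.59 to -0.18, adjusted p = 0.0361), where 3.1% of all genes passed.

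BAQ12O and BAQ13 lay apart without overlap in 5 of the 6 genes, but how many of all genes did so was not counted. In this pair, 1180 of all 10495 genes tested were at an unadjusted p under 0.05 by limma. MT2A, MT1X and MT1E were higher in every BAQ12O library than in every BAQ13 library, by log2 differences of 0.35, 0.25 and 0.38, and MTF1 and SLC39A10 were lower in every one, by log2 differences of -0.61 and -0.31. None passed over 15 libraries (adjusted p = 0.142 for MT2A, 0.160 for SLC39A10 and 0.156 for MTF1). When replicate 3 of BAQ12 was left out, which is in neither group, 4 passed, namely MT2A (adjusted p = 0.000632), SLC39A10 (0.00159), MT1E (0.0134) and MTF1 (0.0414), where 3.65% of all genes passed. SLC30A1 did not separate the pair (log2 difference 0.04, 95% interval -0.28 to 0.36).

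**Figure D4:**
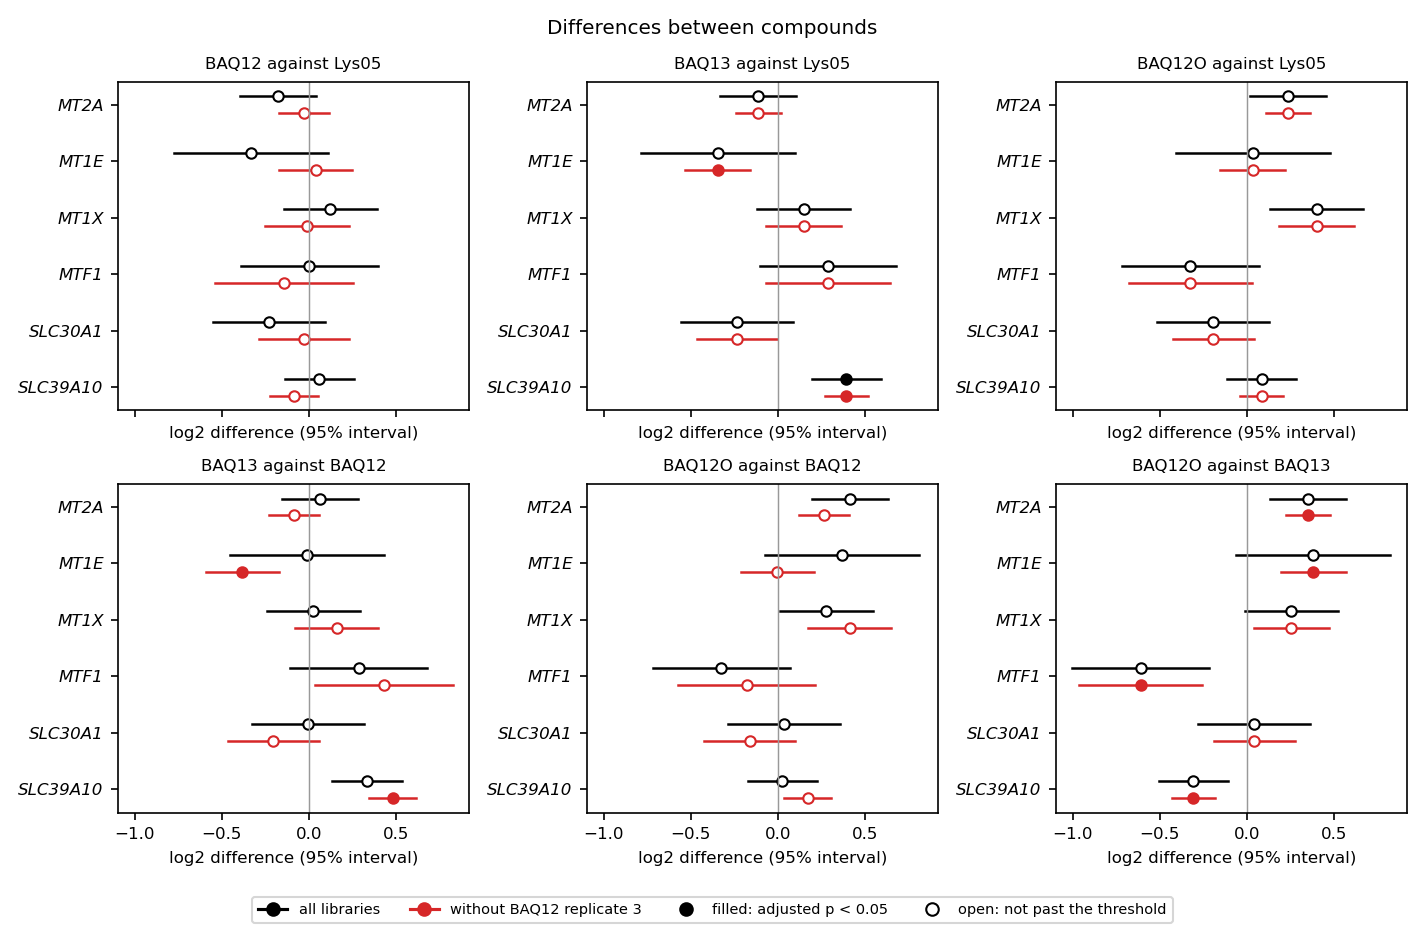
Log2 difference between compounds with its 95% interval on the x axis, for the 6 tested genes and the 6 pairs of compounds, in black with all libraries and in red without replicate 3 of BAQ12. Filled points had an adjusted p under 0.05. With all libraries only SLC39A10 in BAQ13 against Lys05 is filled, and in BAQ12O against BAQ13 MT2A and MT1E lie above 0 while MTF1 and SLC39A10 lie below it.

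The wider zinc families were examined by lists. Of 17 metallothionein genes and pseudogenes listed, 16 were in the files, 7 had a read and 6 were tested (MT2A, MT1A, MT1E, MT1G, MT1L and MT1X), and 0 of the 6 passed with any compound over 15 libraries by limma, edgeR or DESeq2. At an unadjusted p under 0.05 by limma there were 0 with Lys05, 2 with BAQ12, 3 with BAQ13 and 1 with BAQ12O. Of all 10495 genes tested, 523, 1239, 2041 and 1339 were at that level with the same compounds. Their summed normalised read count was 6906 ± 257 with vehicle, 6652 ± 134 with Lys05, 5889 ± 1237 with BAQ12, 5969 ± 546 with BAQ13 and 7619 ± 740 with BAQ12O (SD, n = 3). The sum ranged from 4463 to 6668 within BAQ12, the lowest being replicate 3. The 3 BAQ13 libraries (5377 to 6452) lay below the 3 vehicle libraries (6610 to 7059), and the 3 BAQ12O libraries (7191 to 8473) above them. MT2A made up 70.4% to 76.9% of the sum in each library, so the sum mostly restates MT2A and says little of the low copies. The sum was not tested.

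Within the metallothioneins, MT1A and MT1G had opposite signs with BAQ13, and both are described because of their values, which were seen first. MT1A was at 62.3, 58.1 and 52.3 normalised read counts with vehicle and 27.1, 37.4 and 37.7 with BAQ13, without overlap (log2 difference -0.75, adjusted p = 0.104). MT1G was at 14.9, 15.6 and 27.5 with vehicle and 37.3, 32.8 and 31.0 with BAQ13, also without overlap (log2 difference 0.82, adjusted p = 0.0545). Both passed the test without replicate 3 of BAQ12 (adjusted p = 0.00201 for MT1A and 0.0159 for MT1G). The 6 metallothioneins then had 1 higher and 2 lower with BAQ13, MT1E being the other lower one, where 13.5% of all genes passed in either direction.

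Among the 7 tested of 11 ZnT exporter genes, SLC30A3 rose and no other passed. SLC30A3 (chr2:27253684-27275817, minus strand) encodes ZnT3, known for loading zinc into synaptic vesicles. It was at 49.0, 41.3 and 40.4 normalised read counts with vehicle, 63.9, 51.0 and 71.9 with Lys05, 78.0, 67.2 and 71.6 with BAQ12, 102.6, 103.9 and 109.8 with BAQ13, and 77.6, 66.7 and 52.4 with BAQ12O. All libraries of all 4 compounds lay above vehicle. The rise was 2.4-fold with BAQ13 (log2 difference 1.26, 95% interval 0.92 to 1.6, adjusted p = 6.16e-05) and 1.65-fold with BAQ12 (log2 difference 0.72, adjusted p = 0.0390). The log2 differences of 0.50 with Lys05 (adjusted p = 0.603) and 0.57 with BAQ12O (adjusted p = 0.103) did not pass, the latter only over 15 libraries (adjusted p = 0.0311 without replicate 3 of BAQ12). SLC30A3 was also higher with BAQ13 than with Lys05 (log2 difference 0.76, adjusted p = 0.0125) and lower with BAQ12O than with BAQ13 (log2 difference -0.69, adjusted p = 0.0381). The median log2 difference of the 7 ZnT genes with BAQ13 was -0.24, on the other side of 0 from SLC30A3.

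Of the 14 ZIP importer genes 10 were tested, and SLC39A10 with BAQ13 was the 1 that passed with any compound. The other 9 had log2 differences between -0.49 (SLC39A3) and 0.03 (SLC39A1) with BAQ13, and the median of the 10 was -0.12. Of the 14 genes for other metal handling (copper, iron, magnesium and lysosomal cation channels), 11 were tested and 0 passed against vehicle with any compound by limma, edgeR or DESeq2. Of the 11, 0, 1, 2 and 1 were at an unadjusted p under 0.05 by limma with Lys05, BAQ12, BAQ13 and BAQ12O. The numbers over all 10495 genes tested were 523, 1239, 2041 and 1339. Without replicate 3 of BAQ12, 2 of the 11 passed as higher with BAQ13, where 13.5% of all genes passed. They were the divalent cation channel gene TRPM7 (log2 difference 0.33, adjusted p = 0.0285) and the lysosomal channel gene MCOLN3. MCOLN3 had 2, 2 and 4 reads in the vehicle libraries, about the floor of 3 reads, and reached 10 reads only in treated libraries, so no fold is given for it.

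**Figure D5:**
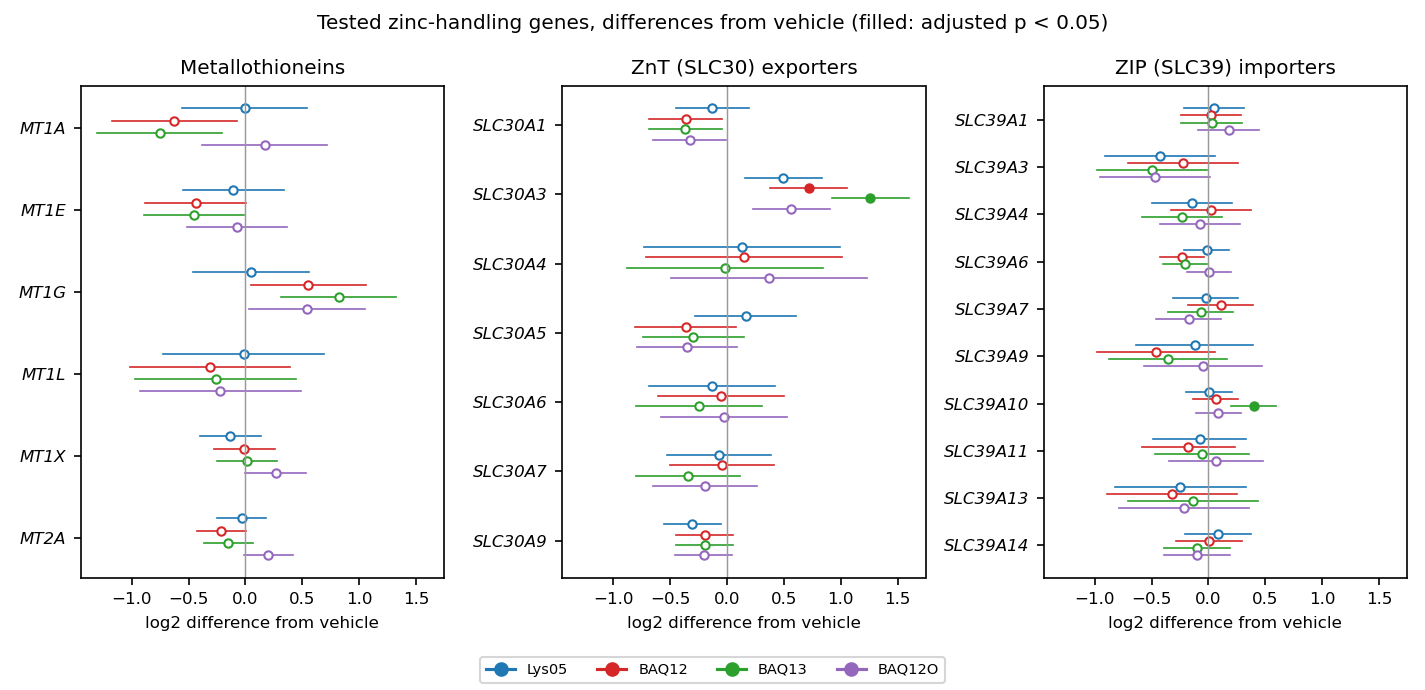
Log2 differences from vehicle with 95% intervals on the x axis, for the tested metallothionein, ZnT and ZIP genes on the y axes, with 1 colour per compound over all 15 libraries. Filled points had an adjusted p under 0.05. SLC30A3 is filled with BAQ12 (log2 difference 0.72) and BAQ13 (1.26), SLC39A10 with BAQ13 (0.40), and 0 of the 6 metallothioneins is filled.

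HMOX1 and GCLC, listed as genes related to MTF1 and zinc sensing and named here after their values were seen, rose with BAQ13. HMOX1, the inducible haem oxygenase, is also a target of the oxidative stress factor NRF2. It was at 47.3, 45.8 and 45.0 normalised read counts with vehicle, 61.8, 40.6 and 65.3 with Lys05, 67.0, 82.5 and 180.9 with BAQ12, 222.1, 164.1 and 127.4 with BAQ13, and 86.2, 75.3 and 75.8 with BAQ12O. The difference with BAQ13 was a log2 value of 1.84 (95% interval 1.25 to 2.43, adjusted p = 0.000418), without overlap, while 1.10 with BAQ12 did not pass by limma (adjusted p = 0.0821) but did by DESeq2. Without replicate 3 of BAQ12 the value with BAQ12 was 0.68 (adjusted p = 0.0944), and HMOX1 passed with BAQ12O (log2 difference 0.77, adjusted p = 0.00730). GCLC, which makes the first step of glutathione synthesis and is an NRF2 target too, had a log2 difference of 0.86 with BAQ13 (adjusted p = 0.0295). Within BAQ12, HMOX1 was highest in replicate 3, where MT1E was lowest and SLC39A10 highest.

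Cell type markers moved with some of the compounds. Of the 5 epithelial markers 3 were tested. KRT8 was lower than vehicle with BAQ12 (log2 difference -0.58, adjusted p = 0.00607), BAQ13 (-0.85, adjusted p = 3.77e-05) and BAQ12O (-0.60, adjusted p = 0.00443), and KRT18 with BAQ13 and BAQ12O. KRT19 did not pass and had the opposite sign, at 485.7 to 508.9 normalised read counts with vehicle, 522.1 to 549.6 with BAQ13 (log2 difference 0.12, adjusted p = 0.449) and 512.9 to 572.0 with BAQ12O (log2 difference 0.12, adjusted p = 0.576), without overlap in either case. In the fit without replicate 3 of BAQ12, KRT8 also passed as lower with Lys05 and KRT18 with BAQ12. The summed epithelial markers were between 1715 and 1795 normalised read counts with vehicle, 1388 and 1574 with Lys05, 1381 and 1556 with BAQ12, 1362 and 1379 with BAQ13, and 1364 and 1487 with BAQ12O. Of the 3 fibroblast markers, COL1A2 was lower with BAQ12 (log2 difference -0.56) and BAQ13 (-0.54), COL1A1 had at most 2 reads in a library and DCN had 0. The summed fibroblast markers were between 214 and 253 with vehicle, 185 and 197 with Lys05, 149 and 156 with BAQ12, 148 and 170 with BAQ13, and 180.0 and 222 with BAQ12O. The part of these shifts in the results for the zinc genes was not tested, and in bulk RNA fewer cells of a state and less RNA per cell cannot be told apart.

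The genes whose levels over the 15 libraries were most like those of MT2A, by Pearson's correlation of log2(value + 1) over 10494 other genes, were ARL6IP1 (0.957), RNASET2 (0.921), ATP2B4 (0.914), CCDC84 (0.910) and CD47 (0.880). None of them is a metallothionein. Leaving out replicate 3 of BAQ12, these values were between 0.821 and 0.921. For SLC30A1 they were SEC11A (0.959), DHX9 (0.954), SPCS3 (0.946), MBP (0.938) and VMA21 (0.936), and between 0.893 and 0.941 without that library. The 15 libraries share their groups and scaling, so these values describe likeness only.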

How the data were processed

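RNA of MIA PaCa-2 cells was sequenced in 15 libraries, and groups and replicate numbers were taken from the labels. The authors deposited 1 normalised signal per gene and library, made from gene reads and 1 size factor per library. Whole reads were recovered in 100% of the non-zero values (tolerance 0.02 reads). The submitters' processing notes name STAR, HTSeq and DESeq2 with GRCh38, without versions or settings. Sources differ on the kit, which the labels describe as reading 3′ ends and the study's methods as stranded with paired ends.

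limma (3.58.1) was run on log2(value + 1), a scale that understates the change of low genes, with moderated variances that follow a trend, in 1 fit of the 15 libraries. Genes were kept by edgeR's filterByExpr on the recovered reads (minimum count 10, minimum total 15), Benjamini-Hochberg adjustment was made over all 10495 genes kept, and a gene passed at an adjusted p under 0.05. Intervals are 95% intervals. Alternatives were edgeR (4.0.16) and DESeq2 (1.42.0) on the recovered reads, TMM and upper-quartile factors, pseudocounts of 0.1 and 5, no filter, at least 10 reads in every library, the replicate block, only the libraries compared, and each library left out. Library weights were added after seeing the data. On simulated data for BAQ13 against vehicle, with 200 of 10495 genes changed 2-fold, limma recovered 77.5% with 8 false calls, edgeR 81% and DESeq2 68.5%. The simulation gave every gene and library the same dispersion and had no outlying library. It therefore does not measure the power for the smaller differences of the 6 tested genes. R 4.3.3 and Python 3.11.15 were used.

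The genes and lists were chosen with earlier results of these data known. Named genes were the 8 chosen, listed metallothionein, transporter and metal handling genes that passed against vehicle, and the 5 genes most like MT2A and the 5 most like SLC30A1. Others are named after their values were seen. The glucocorticoid-responsive list (6 of 7 genes tested) had 1 higher gene with BAQ13, TSC22D3, and the NRF2 target list (8 tested) had 2, HMOX1 and GCLC, where 5.77% of all genes passed. Without replicate 3 of BAQ12 these were 2 (with KLF9) and 4 (with OSGIN1 and TXNRD1), where 13.5% passed. Gene locations are from GENCODE 29 and promoters from RefSeq.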

Additional observations from a re-analysis of the deposited data

How the results depend on the processing

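Over 11 other settings and 15 fits that each left out a library, 0 of the 6 genes passed with Lys05 or BAQ12 against vehicle in any of them. SLC39A10 with BAQ13 against vehicle kept its direction in all 26 and passed in 21 (log2 difference 0.35 to 0.43, adjusted p from 2.13e-06 to 0.0819). The number of genes passing with BAQ13 against vehicle was 0 to 3 over the fits that left out a library, 3 with library weights and 2 with only the libraries compared, where MT1E joined SLC39A10 (log2 difference -0.45, adjusted p = 0.0144). Of all 10495 genes, 2333 passed with library weights and 947 with only the libraries compared, against 606 in the main fit. The fits that left out a library passed 320 to 1436 of all genes tested. With only the libraries compared, 2 genes passed with BAQ12O, MT2A (adjusted p = 0.0127) and SLC30A1 (adjusted p = 0.0435). In that setting 871 of all 10495 genes passed with BAQ12O, against 155 in the main fit. Over the 6 pairs of compounds, the number passing was 0 to 8 over the fits that left out a library (8 without replicate 3 of BAQ12), 0 without a filter on low counts, 9 with library weights and 3 with only the libraries compared. With the replicate block the number over the pairs was 0, and the block changed no call against vehicle. How many of all genes passed in the pairs with library weights, or with only the libraries compared, was not counted. Same-numbered libraries deviated together by correlations of -0.492 to 0.2 and in no comparison by over 0.1 in every pair, so the numbers were not taken as pairs. With library weights, MT1E (-0.38) and SLC30A1 (-0.37) passed with BAQ13.

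Differences near 0 changed sign. SLC39A10 with Lys05 was -0.0032 with TMM factors, -0.0017 with upper-quartile factors and -0.015 to 0.020 over the fits that left out a library. With library weights, MTF1 was -0.033 and SLC39A10 -0.064 with BAQ12. Over the fits that left out a library, SLC39A10 with BAQ12 was -0.081 to 0.14, MTF1 with Lys05 -0.10 to 0.15 and with BAQ12 -0.11 to 0.16, and MT1X with BAQ12 -0.14 to 0.12 and with BAQ13 -0.020 to 0.076. The causes were not tested. At this depth, MT1F and SLC39A8 cannot be judged, and the intervals of the tested genes are wide at 3 libraries a group.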
